A study of Homo sapiens with 30 samples.

Results

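Adenosines in 3′ untranslated regions (3′ UTRs) made up 96840 of the 382978 sites listed with a share of edited reads in HEK 293T cells, which derive from human embryonic kidney, transfected with RNA-guided adenosine deaminases. A site was counted here when it lay after the stop codon in 1 chosen transcript of a protein-coding gene of GENCODE v29 (GRCh38; the APPRIS principal transcript, then the longest), was an adenosine on the strand of that transcript, and lay in exons of no second gene. The rule took no account of editing levels. It placed 27.4% of the 352939 sites that lie in exons of 1 gene in 3′ UTRs of 6087 genes, against 228608 sites in coding sequence and 12551 in 5′ UTRs. Another 7748 sites in 3′ UTRs were kept out because an exon of a second gene covers them.

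The study sequenced poly(A) RNA from 30 samples taken 60 h after transfection. Full-length ADAR2, as wild type or with the E488Q substitution, was expressed with or without a GluR2 adRNA guide in 4 libraries. A fusion of Cas13b and the ADAR2 deaminase domain (DD) with E488Q was expressed with or without its gRNA in 2 libraries. The deaminase domains of ADAR2 and ADAR1 were fused to MCP, the phage coat protein that binds MS2 hairpins, in 16 libraries: each as E-to-Q (E488Q in ADAR2, E1008Q in ADAR1) or wild type, with a signal for nuclear localisation (NLS) or nuclear export (NES), and with or without an MS2 adRNA. Controls were cells that received GFP, MS2 adRNA, GluR2 adRNA or gRNA alone, 1 library each, and 1 untransfected library run 4 times. Every deaminase condition is 1 library of transiently transfected cells, so tests below take libraries, mostly in matched pairs, as their units. Libraries of a construct with and without guide count there as separate units. They are not independent, so the p-values can overstate the evidence. The fraction of cells that took up a construct is not given. A higher share in more cells and a higher share in each transfected cell cannot be told apart in such bulk RNA.

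The 3′ UTR is the stretch of a message between the stop codon and the poly(A) tail. It holds the polyadenylation signal, binding sites of microRNAs and of proteins that set a message's stability and place in the cell, and, in many human genes, copies of Alu repeats that can pair with each other. ADAR enzymes act on double-stranded RNA, where they deaminate adenosine to inosine, a base that sequencing reports as G. In full-length ADAR2 the double-stranded RNA-binding domains precede the deaminase domain, and the MCP and Cas13b fusions carry the deaminase domain without them. The E-to-Q substitutions are known as more active forms, and both enzymes are known to favour U or A before and G after the edited base and to disfavour G before it.

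Windows of 21 nt around 3′ UTR sites that the results turn on are printed here in the direction of the message, from GENCODE v29 transcripts on GRCh38, with the edited adenosine as the capital. The first 5 are those with the highest mean gain in each range of distance from the stop codon, and the next 5 are among those that differed most between constructs. Each lies in the last exon of its transcript.
SELENOT (chr3:150627159-150627674, plus strand, across a splice junction): cttttgcattAagggatcatt
PCBP4, 63 nt (chr3:51957988-51958008, minus strand): tctgcaccctAcccgcccaag
PCBP4, 252 nt (chr3:51957799-51957819, minus strand): gtgcttggatAcagggagcag
TXNL4B (chr16:72085312-72085332, minus strand): tgacctgcctAgcagccgctg
EIF2AK2 (chr2:37100944-37100964, minus strand): agtaaatacaAgtctcagtca
RELA, E-to-Q higher (chr11:65653815-65653835, minus strand): gctgaaggaaAccagtgcaac
CMTM3, E-to-Q lower (chr16:66613285-66613305, plus strand): tctgggtctaAgactgtttca
CNN2, ADAR2 domain higher (chr19:1038188-1038208, plus strand): tgggcttggaAggaaccggtc
GATAD1, ADAR2 domain lower (chr7:92456812-92456832, plus strand): atcattgtttAttactggtca
RAB7A, guide higher (chr3:128814192-128814212, plus strand): aaatccagctAgcggcagtat

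The files give each site's share of edited reads and an adjusted p-value of the authors, with no read counts, so the depth behind a value is unknown and no counting interval is given. A site is called in a library here if its adjusted p was under 0.01 and its share lay above the mean of the 3 untransfected runs used. In the untransfected cells the 3′ UTR sites averaged 0.184%, against 0.117% at coding sites, with a mean SD between runs of 0.173 percentage points at a 3′ UTR site. By the same rule 2 of the 96840 3′ UTR sites (0.00207%) were called in any control, against 0.00757% of all listed sites. Both lay in EEF2, the translation elongation factor, 246 and 252 nt after its stop codon, and are named after their values were seen. They reached 8.90% and 4.65% with gRNA alone, against untransfected means of 2.84% and 2.51%. The other controls were also above those means. The site at 246 nt had 6.92% with GFP, 6.72% with MS2 adRNA and 7.32% with GluR2 adRNA. The site at 252 nt had 2.75%, 3.75% and 4.10% in the same order. Since every listed 3′ UTR site passed 0.01 in some column of adjusted p-values, the list is of sites that passed somewhere, and messages with more reads can contribute more sites.

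Listed sites were densest just after the stop codon and thinned out along the 3′ UTR. Per 1000 adenosines of the chosen transcripts, 24.9 were listed in 3′ UTRs, 59.5 in coding sequence and 34.0 in 5′ UTRs. Within 50 nt of the stop codon 66.5 of 1000 adenosines were listed, 51.2 at 50 to 200 nt, 36.4 at 200 to 1000 nt, 19.1 at 1000 to 3000 nt and 5.33 beyond 3000 nt. The last 50 nt of coding sequence held 77.8 per 1000, so the density dropped across the stop codon and went on falling to 27.4 per 1000 at 951 to 1000 nt. The median listed 3′ UTR site lay 596 nt from the stop codon (quartiles 231 and 1276 nt, maximum 10686 nt), at 37.5% of the length of its UTR.

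**Figure D1:**
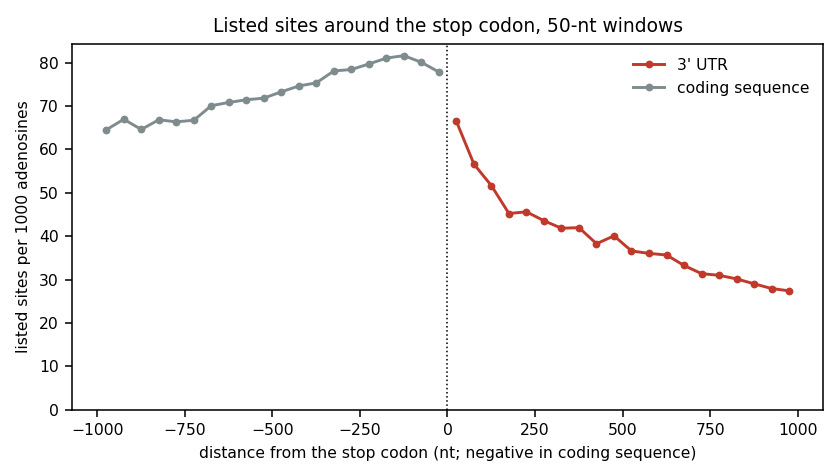
Listed sites per 1000 adenosines of the chosen transcripts (y axis) in 50-nt windows by distance from the stop codon (x axis, nt; negative values are coding sequence). The last 5 coding windows held 77.8 to 81.6 per 1000, the first 3′ UTR window 66.5 and the window at 951 to 1000 nt 27.4.

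Long 3′ UTRs were the sparser ones. UTRs of up to 500 nt held 48.5 listed sites per 1000 adenosines, those of 500 to 1000 nt 52.7, those of 1000 to 2000 nt 40.9, those of 2000 to 4000 nt 25.2 and longer ones 9.70. The density also fell with distance within UTRs of at least 3000 nt, where nearly the same genes (1434 to 1497) fill every range. They held 40.7 per 1000 within 50 nt, 30.9 at 50 to 200 nt, 22.8 at 200 to 1000 nt, 14.9 at 1000 to 3000 nt and 5.33 beyond. The last 50 nt before the annotated end held only 2.93 per 1000, against 22.1 between 50 and 200 nt and 37.0 between 200 and 1000 nt before the end. Read depth along the UTRs and the use of earlier polyadenylation sites are not in these files, and their part in the gradient was not tested. Among 7165 genes with at least 50 adenosines in each region, the median gene had 14.1 listed sites per 1000 3′ UTR adenosines, against 40.2 per 1000 coding adenosines. The 3′ UTR was the denser region in 1450 genes and the sparser in 5568.

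Listed 3′ UTR sites were rich in G after the adenosine and poor in G before it. G followed the adenosine at 58.4% of listed 3′ UTR sites, against 24.6% of all adenosines in the chosen 3′ UTRs. G preceded it at 10.2% of listed 3′ UTR sites, against 20.5% of the adenosines. AAG and UAG were the densest triplets with 74.9 and 74.2 listed sites per 1000 adenosines, followed by CAG with 58.4, and GAU was the sparsest with 3.34. In coding sequence the same UAG and AAG triplets held 171 and 153 per 1000. Listed coding sites leaned the same way. G followed the adenosine at 58.2% of them, against 31.1% of coding adenosines, and preceded it at 12.5%, against 29.5%. UAG made up 13.5% of listed 3′ UTR sites and 6.49% of listed coding sites, and it forms 4.53% of 3′ UTR adenosines and 2.26% of coding adenosines. With coding densities weighted to the triplets of 3′ UTRs, coding sequence would hold 58.3 per 1000.

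Genes differed widely in how many 3′ UTR sites they held. The median gene had 8, 786 genes had 1, and 422 genes had 50 or more. CBX6, a polycomb chromatin reader, had the most with 291, or 324 per 1000 adenosines of its 4759-nt UTR. SLC7A5, the large amino acid transporter LAT1, had 285, USP22, the deubiquitinase of the SAGA complex, 259, NUCKS1, a nuclear DNA-binding protein, 220, and IGF2BP1, an RNA-binding protein, 213. In CBX6 and SLC7A5 the library with the most calls was full-length ADAR2 (E488Q) with guide, with 209 and 228 called sites, while in USP22 and NUCKS1 it was MCP-ADAR1 DD (E1008Q)-NES without guide, with 177 and 162. NUCKS1 had 16 sites called in any full-length ADAR2 library, against those 162 in 1 MCP-ADAR1 library. The densest UTRs with at least 100 adenosines were those of MBD3, a subunit of the NuRD complex, with 632 listed sites per 1000 adenosines, SESN2, a stress-induced sestrin, with 577, SLC7A5 with 554, ARF1, a Golgi GTPase, and SGTA, a co-chaperone, both with 543.

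The most edited 3′ UTR sites reached similar levels from 11 to 6319 nt after the stop codon. Gain is the share in a deaminase library minus the untransfected mean, averaged over the 22 deaminase libraries. Within 50 nt the SELENOT site, 35 nt after the stop codon of an endoplasmic reticulum selenoprotein, gained 56.1 ± 15.4 percentage points (SD over 22 libraries). It ranged between 24.0% and 95.3% with a median of 58.1%, against 1.04% in untransfected cells, and was called in 22 of 22. SV2A, a synaptic vesicle glycoprotein, followed at 11 nt with a gain of 45.5 ± 13.4 points, and IQGAP3, a scaffold of small GTPases, at 33 nt with 45.4 ± 18.8 points.

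At 50 to 200 nt the PCBP4 site at 63 nt gained 56.7 ± 26.5 points and had the widest spread of these sites. PCBP4 is a poly(rC)-binding protein. In the MCP-ADAR2 libraries the site lay between 54.2% and 94.1% and in the MCP-ADAR1 libraries between 50% and 85.7%, while full-length ADAR2 had 10.0% and 15.8% as E488Q with and without guide, and 16.7% and 5.88% as wild type with and without guide. The full-length values thus lay below all 16 MCP values. COMMD9, a subunit of the Commander trafficking complex, gained 55.9 ± 13.4 points at 119 nt, and ZC3HAV1, the zinc-finger antiviral protein, gained 52.6 ± 17.8 points at 149 nt.

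At 200 to 1000 nt a second PCBP4 site gained 58.9 ± 19.0 points, followed by POFUT2, an O-fucosyltransferase, with 55.0 ± 15.1 points at 297 nt, and SKA1, a kinetochore protein, with 54.6 ± 23.9 points at 331 nt. The SKA1 site reached 54.5% with full-length ADAR2 (E488Q) and guide, but 9.09%, 5.00% and 9.09% in the other full-length libraries, against 60.0% to 88.9% with MCP-ADAR1. At 1000 to 3000 nt the TXNL4B site, in a thioredoxin-like splicing protein, gained 57.4 ± 10.5 points with a lowest library of 40.7%. TGOLN2, a trans-Golgi protein, gained 54.5 ± 19.6 points at 1005 nt and ZFAND3, a zinc-finger protein, 52.1 ± 15.7 points at 1924 nt.

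Beyond 3000 nt the EIF2AK2 site lay 6319 nt after the stop codon of PKR, the kinase activated by double-stranded RNA, and gained 49.2 ± 22.5 points over an untransfected level of 6.19%. Its shares were 100% and 85.0% with full-length E488Q, with and without guide, and 100% and 93.8% with full-length wild type, with and without guide, above every MCP and Cas13b library (24.3% to 80.6%). ARHGEF12, an activator of RhoA, gained 44.9 ± 16.1 points at 3020 nt, and NFAT5, a transcription factor of the osmotic stress response, 44.3 ± 22.0 points at 6293 nt. At the NFAT5 site the MCP-ADAR2 libraries lay between 5.88% and 42.1%, against 41.9% to 76.0% with MCP-ADAR1.

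**Figure D2:**
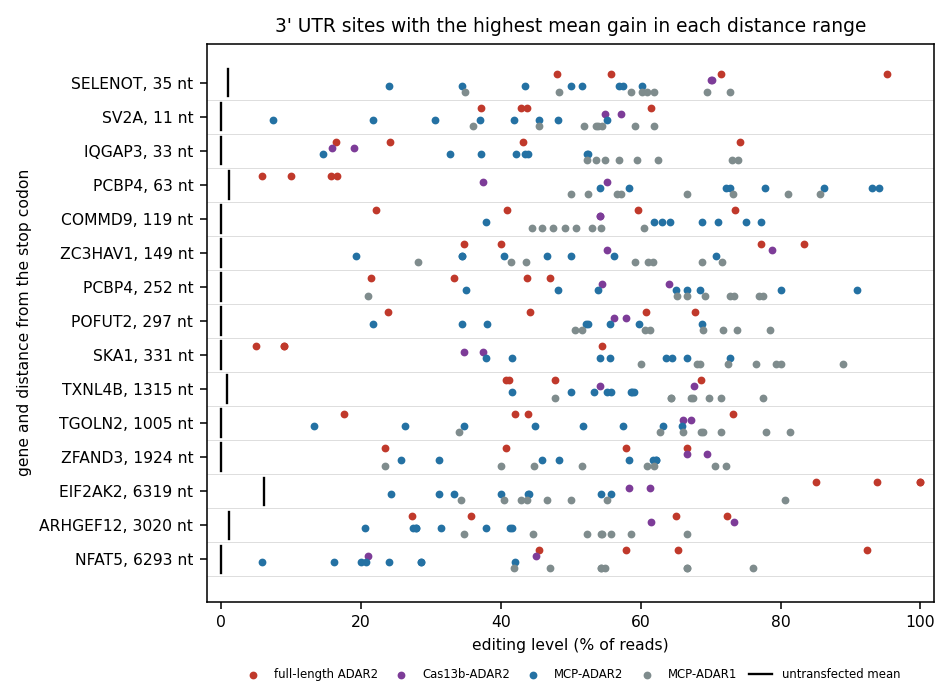
Editing level (% of reads, x axis) at the 3 sites of highest mean gain in each of 5 ranges of distance from the stop codon (y axis, gene and distance), 1 point per deaminase library coloured by construct class, with a black bar at the untransfected mean. Sites within a range are from different genes. The full-length ADAR2 points lie at the right end for EIF2AK2 (85.0% to 100%) and at the left end for PCBP4 at 63 nt (5.88% to 16.7%).

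The 22 deaminase libraries called between 630 and 54208 of the 3′ UTR sites. The 4 full-length ADAR2 libraries called 37.7% (E488Q with guide), 8.60% (E488Q without), 5.81% (wild type with guide) and 2.37% (wild type without) of the 3′ UTR sites, against 32.7%, 6.72%, 4.85% and 1.5% of all listed sites. In all 4 the 3′ UTR share was the higher one. Cas13b-ADAR2 DD (E488Q) called 11.9% with gRNA and 27.6% without, against 12.9% and 29.5% of all listed sites.

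The MCP-ADAR2 libraries called fewer 3′ UTR sites. E488Q-NLS called 7.01% with guide and 5.09% without, against 9.94% and 7.32% of all listed sites. E488Q-NES called 8.51% and 7.01%, against 11.2% and 9.21%. Wild-type NLS called 0.865% and 0.651%, against 1.24% and 0.982%. Wild-type NES called 4.50% and 2.12%, against 5.29% and 2.48%. The 3′ UTR share was the lower one in all 8.

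The MCP-ADAR1 libraries called between 4.48% and 56.0% of the 3′ UTR sites. E1008Q-NLS called 23.2% of 3′ UTR sites with guide and 18.7% without, against 28.9% and 23.5% of all listed sites. E1008Q-NES called 47.7% and 56.0%, against 51.1% and 59.2%. Wild-type NLS called 6.26% and 4.48%, against 7.45% and 5.35%. Wild-type NES called 27.5% and 31.4%, against 26.4% and 30.3%, and was the only MCP construct with the larger share in 3′ UTRs. Across libraries, 38.4% of 3′ UTR sites were called in 1 library alone, 5.48% in 11 or more and 0.128% (124 sites) in all 22, against 36.5%, 6.63% and 0.130% of all listed sites.

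Called 3′ UTR sites were edited to higher levels than called coding sites in each of the 22 deaminase libraries. The median level averaged 13.9 ± 3.08% at called 3′ UTR sites and 9.14 ± 1.61% at called coding sites (SD over 22 libraries). The difference of 4.78 ± 2.14 points ranged between 3.28 and 12.1 points (permutation test by sign flips, two-sided, p = 2e-05, the smallest that 100000 resamples can give). Full-length wild-type ADAR2 without guide had the largest gap, with medians of 22.1% and 9.92%. The 10th percentile of called levels was also higher in 3′ UTRs, for example 3.98% against 2.29% in MCP-ADAR1 DD-NES without guide. A call at lower depth needs a higher share, depth is unknown, and its part in the difference was not tested. Over all listed sites, called or not, the mean level in 3′ UTRs was higher than in coding sequence in full-length ADAR2 (E488Q) with guide, 11.0% against 5.92%. It was lower in 3′ UTRs only in the MCP-ADAR2 DD (E488Q)-NLS libraries, 3.02% against 3.08% with guide and 2.46% against 2.55% without. In every other deaminase library it was higher in 3′ UTRs, by up to 2.59 times in full-length wild-type ADAR2 without guide.

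**Figure D3:**
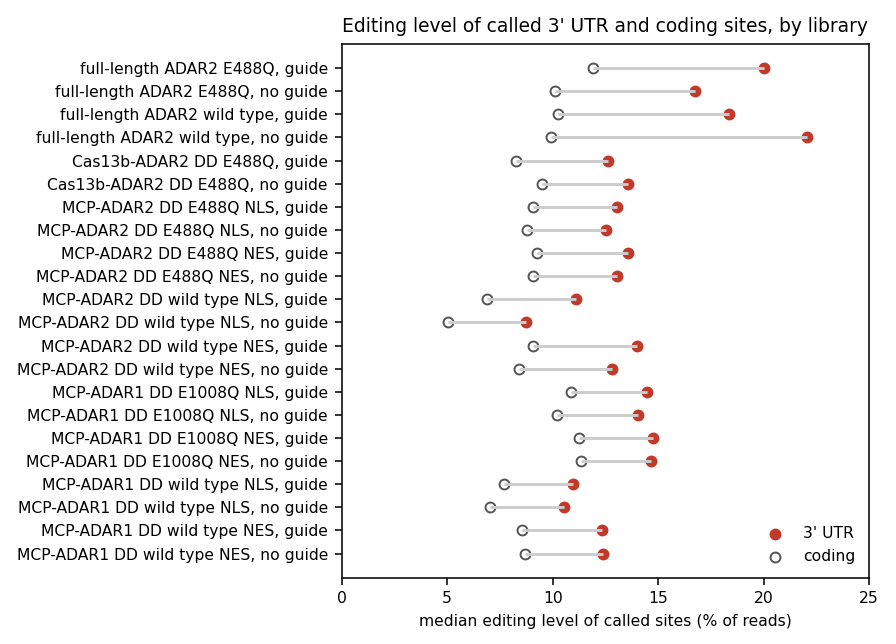
Median editing level (% of reads, x axis) of called 3′ UTR sites (filled) and called coding sites (open) in each deaminase library (y axis). The filled point lies right of the open one in all 22 libraries, with the widest gap in full-length wild-type ADAR2 without guide (22.1% and 9.92%).

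Full-length ADAR2 placed a larger part of its calls in 3′ UTRs than any MCP or Cas13b fusion. Of called sites in exons of 1 gene, 3′ UTRs made up 32% and 35.9% with E488Q, with and without guide, and 33.6% and 44.5% with the wild type, with and without guide. The 2 Cas13b libraries had 25.2% and 25.6%, and the 16 MCP libraries lay between 18.5% and 28.5%. The full-length range therefore did not overlap the others. Matched by variant and guide, full-length ADAR2 averaged 36.5 ± 5.56% and MCP-ADAR2 20.7 ± 0.676%, the mean of NLS and NES (SD, n = 4). The difference of 15.8 ± 5.37 points was positive for 4 of 4 pairs (exact sign-flip p = 0.125, and 4 pairs cannot give a smaller one).

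**Figure D4:**
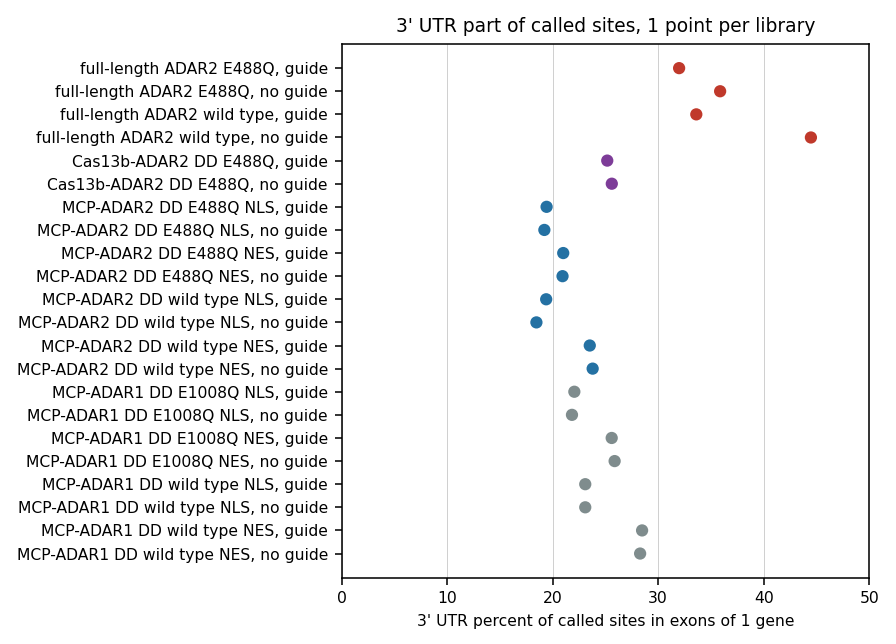
Part of called sites in exons of 1 gene that lay in 3′ UTRs (%, x axis), 1 point per deaminase library (y axis, coloured by construct class). The 4 full-length ADAR2 libraries lie at 32% to 44.5%, right of all others (18.5% to 28.5%).

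The 3′ UTR sites called with full-length ADAR2 also lay farther from the stop codon and closer to each other. Their median distance was 648 and 651.5 nt with E488Q, with and without guide, and 666 and 843 nt with the wild type, against 375.5 to 535 nt in the MCP libraries and 559 and 561 nt with Cas13b. Averages over the matched pairs were 702 ± 94.2 nt and 455 ± 34.3 nt (4 of 4 higher, exact p = 0.125, again the smallest possible). Another called site lay within 20 nt of 47.2% to 63.8% of called 3′ UTR sites with full-length ADAR2, against 17.5% to 32.6% with MCP-ADAR2. This measure moves with the number of calls, and at like numbers it was 53.4% of 2298 sites with full-length wild-type ADAR2 without guide and 21.6% of 2055 sites with MCP-ADAR2 DD-NES without guide. UAG made up 10.5% to 15.4% of called 3′ UTR sites with full-length ADAR2, against 19.4% to 31.4% with MCP-ADAR2. G preceded 12.5% and 12.7% of those called with full-length E488Q, with and without guide, against 7.36% to 7.95% with MCP-ADAR2 DD (E488Q).

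Calls of full-length ADAR2 were more frequent inside inverted repeats than outside. A 3′ UTR adenosine was counted in an inverted repeat when a 12-mer over it, of at least 3 different bases, had its reverse complement within 2000 nt of the same UTR, which held for 1.46% of adenosines and 1.65% of listed sites. With full-length E488Q 2.36% and 4.6% of called 3′ UTR sites lay in such repeats, with and without guide, and with full-length wild type 6.24% and 12.3%. Calls per adenosine were 1.63, 3.25, 4.49 and 9.47 times as frequent inside as outside repeats in those libraries, in the same order. In the other 18 libraries the ratio lay between 0.650 and 1.55. It was 0.662 to 0.747 in the 10 with an E-to-Q domain, 1.12 to 1.55 in the 4 wild-type MCP-ADAR1 libraries, 1.21 and 1.27 in wild-type MCP-ADAR2-NES with and without guide, and 0.650 and 0.867 in wild-type MCP-ADAR2-NLS with and without guide. The highest of these, 1.55, was close to the 1.63 of full-length E488Q with guide. The 0.650 and 0.867 each rest on 8 called sites inside repeats. Mean levels over all listed 3′ UTR sites were higher inside there, 2.02% against 0.954% with guide and 2.05% against 1.05% without. They were also higher inside with MCP-ADAR2 DD (E488Q), for example 3.44% against 3.02% in NES without guide. With MCP-ADAR1 DD (E1008Q) they were lower inside, for example 9.57% against 12.5% in NES without guide. Against MCP-ADAR2-NES of the same variant and guide state, the percentage of calls in repeats was higher by 4.95 ± 3.91 points in 4 of 4 pairs (p = 0.125 by the exact sign-flip test, which cannot go lower here).

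**Figure D5:**
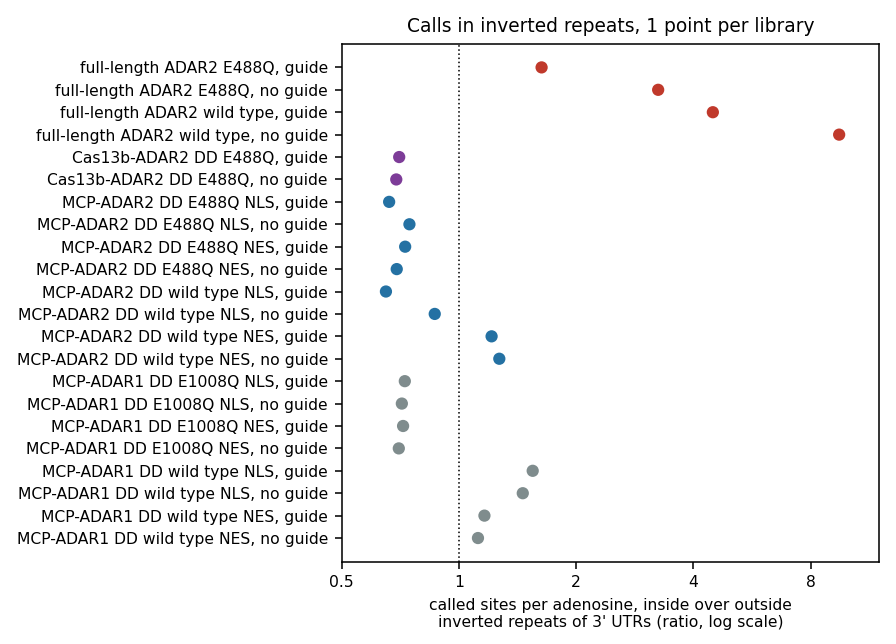
Called 3′ UTR sites per adenosine inside inverted repeats over the same outside them (ratio, log x axis), 1 point per deaminase library (y axis, coloured by construct class). The 4 full-length ADAR2 libraries lie at 1.63 to 9.47 and the other 18 between 0.650 and 1.55. The 0.650 rests on 8 called sites inside repeats.

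In all, 1772 of the 3′ UTR sites were called in all 4 full-length libraries, and 515 of these, in 185 genes, in no other library. These counts were not made over all listed sites. Of the 515, 22.7% lay in inverted repeats. Sites called in full-length libraries alone made up 18.4% of 3′ UTR sites (17842 sites), against 14.4% of all listed sites (55166) and 10.4% of coding sites (23716). Among the 515, sites in different genes were ranked by mean gain over the full-length libraries and named after their values were seen. The highest were in EIF2AK2 at 6341 nt, ZNF655 at 932 nt, DCAF16 at 1581 nt and NCBP3 at 4252 nt. The ZNF655 site, in a zinc-finger gene, lay between 75.6% and 91.2% in the full-length libraries, against 16.2% at most in the other 18. The EIF2AK2 site, 22 nt from the one above, averaged 95.6% with full-length ADAR2 and reached 30.8% at most elsewhere. These contrasts follow from how the sites were picked and carry no test.

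Some 3′ UTR sites were edited without any construct. In untransfected cells 331 of the 3′ UTR sites, in 118 genes, averaged at least 5%, and 19.3% of them lay in inverted repeats. The count was not made over coding or all listed sites, so it does not set 3′ UTRs apart. Sites entered the list by passing in some library, and 18.4% of listed 3′ UTR sites were called in full-length libraries alone, so the gains that follow are partly set by that filter and only describe the listed sites. Their mean gain was 35.6 points over the 4 full-length ADAR2 libraries (31.2 to 42.3), 13.4 points over the 2 Cas13b libraries, 7.36 points over the 8 MCP-ADAR2 libraries (2.97 to 10.1) and 9.01 points over the 8 MCP-ADAR1 libraries (4.77 to 13.7). Taking 1 site per gene, the highest untransfected levels were 76.6% in DCAF16, a substrate receptor of a ubiquitin ligase, and 74.6% in PSMB2, a proteasome subunit. Next came 70.8% in RPL7L1, a ribosome biogenesis factor, 68.9% in BPNT1, a nucleotidase, and 67.1% in GATC, of the mitochondrial glutamyl-tRNA amidotransferase. With full-length ADAR2 3 of these 5 sites were mostly below the untransfected level. The DCAF16 site had 72.7% and 69.0% with full-length E488Q, with and without guide, and 34.2% and 34.1% with full-length wild type, with and without guide. The RPL7L1 site lay between 51.4% and 69.4% in the 4 full-length libraries. The PSMB2 site had 74.4%, 74.2% and 75.3% in the 3 runs and lay above them in all 22 deaminase libraries (79.4% to 96.7%), of which 1 passed the call. The GATC site had 63.2%, 73.1% and 64.9% in the runs, and its deaminase libraries spread between 17.0% and 85.7% with a median of 52.3%. Full-length E488Q with guide had the 85.7%, and the other 3 full-length libraries lay between 17.0% and 33.3%. The fusions were below the untransfected mean of GATC too, at 36.5% to 65.2% with MCP-ADAR1, 48.5% to 57.4% with MCP-ADAR2, and 48.1% and 59.4% with Cas13b. At DCAF16 the MCP-ADAR1 libraries lay on both sides of the untransfected mean (61.5% to 86.7%), and at RPL7L1 above it (75.5% to 81.7%).

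The E-to-Q forms called 3.67 times as many 3′ UTR sites as the matched wild types, against 4.17 times as many coding sites (geometric means over 10 pairs). The 3′ UTR part of called sites averaged 24.4 ± 5.58% with E-to-Q and 26.6 ± 7.71% with wild type, a difference of -2.24 ± 2.55 points, lower in 8 of 10 pairs (exact sign-flip p = 0.00781, adjusted over 4 factors 0.0104). The difference averaged -1.60 points in the 5 pairs with guide and -2.88 points in the 5 without. Since both sets share their constructs, the 10 pairs are not independent. Median distance from the stop codon was 529.5 nt with E-to-Q and 518 nt with wild type, a difference of 11.1 ± 80.3 nt that did not pass (exact sign-flip test, adjusted p = 0.768). Without the full-length pair without guide it was 33.6 nt and passed (adjusted p = 0.0417, exact), and the 8 MCP pairs averaged 40 nt, against -105 nt in the 2 full-length pairs. Within the 16 MCP libraries limma called 34.0% of 3′ UTR sites higher with E-to-Q, 32911 of 96840, against a background of 39.7% of all listed sites, and 797 lower (0.823%, background 0.72%). RELA, the p65 subunit of NF-κB, showed the clearest separation among the leading sites, at 553 nt: 37.1% to 58.3% with E-to-Q (median 49.2%) against 1.71% to 5.41% with wild type (median 4.20%), a difference of 44.1 ± 7.65 points (n = 8 pairs, limma adjusted p = 1.42e-06). TUFT1, the tuftelin gene, at 727 nt rose by 46.6 ± 14.7 points and MYDGF, a myeloid-derived growth factor, at 286 nt by 41.3 ± 9.89 points. A was the base before the edited adenosine in RELA and MYDGF and C the base after it, while TUFT1 had U before and A after.

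The 3′ UTR sites that fell with E-to-Q were led by CMTM3, a MARVEL-domain protein, at 658 nt. It had 1.89% to 18.2% with E-to-Q (median 6.85%) and 15.0% to 39.4% with wild type (median 25.9%), a difference of -18.2 ± 4.28 points (limma adjusted p = 4.66e-05), and the groups overlapped. CHP1, a calcineurin-like calcium sensor, at 1867 nt differed by -12.3 ± 6.37 points and GSKIP, a GSK3-binding protein, at 776 nt by -12.2 ± 9.96 points. All 3 have G after the edited adenosine.

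Nuclear MCP fusions called 2.92 times fewer 3′ UTR sites than exported ones, against 2.36 times fewer coding sites. The 3′ UTR part was 20.8 ± 1.89% with NLS and 24.7 ± 2.91% with NES, a difference of -3.87 ± 1.52 points, lower in 8 of 8 pairs (exact sign-flip p = 0.00781, adjusted 0.0104, and 8 pairs cannot give a smaller p). Called 3′ UTR sites were also closer to the stop codon with NLS, at a median of 455 ± 47.1 nt against 504 ± 27.7 nt with NES (8 of 8 pairs, adjusted p = 0.0156), but as a percentage of UTR length the difference did not pass (adjusted p = 0.0938). Each construct entered these tests with and without guide, so the 8 pairs are not independent. The part differed by -3.66 points in the 4 pairs with guide and by -4.07 points in the 4 without. By the exact sign-flip test 4 pairs cannot give p under 0.125. In limma 5237 of the 3′ UTR sites were lower with NLS (5.41%, background 3.76%) and 5 were higher (0.00516%, background 0.0397%). The total of 5242 calls is unstable: it was 0 on untransformed shares, 8386 with an interaction of enzyme and variant, and between 560 and 1606 without any 1 of the 8 MCP-ADAR1 libraries. It was 1517 without MCP-ADAR2 DD-NES with guide and 3160 without MCP-ADAR2 DD-NLS with guide.

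VASP, an actin regulator, was among the 3′ UTR sites that fell most with NLS. At 560 nt it had 0% to 15.4% with NLS (median 7.57%) and 21.7% to 47.2% with NES (median 31.8%), so the groups did not overlap (a difference of -26.5 ± 12.2 points, limma adjusted p = 0.0185). A ZC3HAV1 site at 3490 nt differed by -28.4 ± 11.8 points and one in TMEM106B, a lysosomal membrane protein, at 2632 nt by -26.0 ± 14.2 points. Of the 5 sites called higher with NLS, 3 had the same sign in every pair. KIF18B, a mitotic kinesin, whose UTR is 88 nt long, had 11.1% to 34.6% with NLS (median 21.5%) against 4.40% to 22.7% with NES (median 9.28%), higher by 11.3 ± 2.28 points at 74 nt (limma adjusted p = 0.0208). P2RY11, a purinergic receptor, at 141 nt and ZNF445, a zinc-finger gene, at 1994 nt differed by 9.57 ± 7.07 and 19.0 ± 21.2 points, and kept their calls in 11 and 10 of 21 alternatives. The remaining pair, RFWD3 and UBE2G2, named although outside the rule, averaged 0.893% and 0.718% with NLS and 0% with NES.

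The ADAR2 domain called 6.29 times fewer 3′ UTR sites than the ADAR1 domain, against 4.96 times fewer coding sites. The 3′ UTR part was 20.7 ± 2.01% with ADAR2 and 24.8 ± 2.66% with ADAR1, a difference of -4.07 ± 0.973 points, lower in 8 of 8 pairs (exact p = 0.00781, adjusted 0.0104). Median distance was 455 ± 47.2 nt with ADAR2 and 503 ± 28.4 nt with ADAR1 (8 of 8 pairs, adjusted p = 0.0156), and as a percentage of UTR length it did not differ beyond the test (adjusted p = 0.926). Here too the 8 pairs hold each construct with and without guide and are not independent. The part differed by -3.97 points in the 4 pairs with guide and by -4.17 points in the 4 without. In limma 68.6% of 3′ UTR sites were lower with the ADAR2 domain (66423, background 66.0%) and 2.33% higher (2259, background 2.6%). GATAD1, a chromatin-associated zinc-finger protein, had the largest fall: at 260 nt its site lay between 0% and 14.7% with ADAR2 (median 0%) and between 56.8% and 82.5% with ADAR1 (median 75.5%), a difference of -71.1 ± 11.8 points (limma adjusted p = 3.64e-07). STK35, a kinase, at 3190 nt differed by -58.3 ± 14.7 points and KLHL15, a ubiquitin ligase adaptor, at 2130 nt by -57.7 ± 8.85 points.

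CNN2, the calponin 2 gene, led in the other direction. At 298 nt it had 16.7% to 61.4% with ADAR2 (median 38.1%) and 0.926% to 7.27% with ADAR1 (median 5.29%), higher by 35.0 ± 12.8 points without overlap (limma adjusted p = 2.09e-06). DUSP8, a phosphatase of MAP kinases, at 1455 nt rose by 28.3 ± 10.7 points and RBSN, the endosomal protein rabenosyn-5, at 2691 nt by 27.7 ± 13.3 points. G followed the edited adenosine at all 3 sites.

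The effect of guides on the number of called 3′ UTR sites varied among the 11 pairs. With a guide 1.35 times as many 3′ UTR sites were called as without (geometric mean), with pairs between 0.432 times for Cas13b and 4.38 times for full-length E488Q, against 1.46 times as many coding sites. In these pairs the 3′ UTR part was 24.8 ± 4.78% with and 26.1 ± 7.77% without (11 pairs, exact p = 0.332). The difference in the part was -1.28 ± 3.41 points. In limma, on the 16 MCP libraries alone, 1 of the 3′ UTR sites was higher with guide (0.00103%, background 0.000783%) and 0 lower (background 0.0%), against 2012 and 758 at an unadjusted p under 0.05. That site lay in RAB7A, a late endosomal GTPase, 780 nt into its 1374-nt UTR at chr3:128814202, known from the published study as the site its guides target. Across the 8 pairs it had 7.00% to 41.9% with guide (median 27%) and 0% to 2.13% without (median 0.863%), higher by 25.0 ± 13.3 points (limma adjusted p = 0.048). The groups did not overlap, but the limma call held in 3 of 21 alternatives and was lost whenever a library other than MCP-ADAR2 DD-NLS with guide was left out. In the libraries outside that fit it had 26.8% with and 0% without guide for full-length E488Q, 27.6% and 0% for full-length wild type, and 11.6% and 2.53% for Cas13b.

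Known elements of 3′ UTRs were searched on the message strand, and the densities are a description without a test. AATAAA, the main polyadenylation signal, stood in the last 50 nt of 64.0% of the 8456 UTRs, and 29 of its 26462 adenosines were listed there, or 1.10 per 1000. ATTAAA, its common variant, stood there in 19.4% of UTRs, with 2 of 6231 adenosines listed. Adenosines with the same 2 neighbours held 15.6 and 16.0 listed sites per 1000 over whole UTRs, and the last 50 nt as a whole held 2.93. AATAAA elsewhere in the UTR held 5.00 per 1000, against 14.9 with the same neighbours. The most edited polyadenylation signal was that of HSP90AB1, the chaperone HSP90 beta, 263 nt into a 285-nt UTR, with shares of 0% to 60.2% (median 6.16%) and calls in 10 libraries. ATTTA, the core of AU-rich elements, stood in 71.3% of UTRs and held 10.9 listed sites per 1000 adenosines, against 18.5 with the same neighbours. TGTANATA, the motif bound by Pumilio proteins, stood in 28% and held 10.9 per 1000, against 20.3.

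MicroRNA seed matches differed from one another. The mature sequences of 2 of the 6 microRNAs searched are printed from RefSeq (GRCh38.p14), with the seed, bases 2 to 8, in capitals, because their matches hold more listed sites than the neighbours alone would give.
hsa-let-7a-5p: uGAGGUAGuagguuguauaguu
hsa-miR-92a-3p: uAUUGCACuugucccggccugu
The let-7 match CUACCUC stood in 9.98% of the UTRs and has 1 adenosine. It was listed in 100 of 928 cases, or 108 per 1000, against 40.8 per 1000 UTR adenosines with the same 2 neighbours and 84.4 per 1000 outside let-7 matches in the same CUACC context. Full-length ADAR2 called 45 of the 100, MCP-ADAR2 23 and MCP-ADAR1 82, against 38.4%, 11.8% and 74.0% of all 3′ UTR sites. The strongest was in ZNF282, a zinc-finger gene, at 629 nt, with 17.3% to 82.2% (median 44.5%), and it was called in 22 of 22 libraries; its window follows with the edited adenosine as the capital.
ZNF282 (chr7:149225266-149225286, plus strand): ctctccgcctAcctccgctgc
The miR-92a match GUGCAAU, in 10.7% of UTRs, held 20.9 listed sites per 1000 adenosines, against 9.31 with the same neighbours, and 41 of its 43 sites were at the second A. That A held 39.9 per 1000, against 9.10 with the same neighbours. The first A held fewer, 1.95 against 9.52, and 7.12 outside matches in the same GCAAU context. The second A was not compared in its context of 5 bases. The strongest lay in RPL28, a ribosomal protein, at 1929 nt, with a median of 38.0%. The miR-21 match AUAAGCU, in 8.61% of UTRs, held 20.1 per 1000, against 33.2 with the same neighbours. The miR-17 match GCACUUU, in 22.4%, held 12.9 against 23.5, and the miR-10a match ACAGGGU, in 12.7%, 30.0 against 39.7. The miR-16 match UGCUGCU, in 23.3%, has no adenosine.

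Among the gene lists with more than 1 gene, 3′ UTRs with inverted Alu repeats had the highest density of listed sites per adenosine. All 6 of their genes with a listed site, of 12 in the list, had sites in the 3′ UTR, 426 in all or 56.2 per 1000 adenosines, against 24.9 over all genes. Of 8456 genes with 3′ UTR adenosines and a listed site anywhere in the transcript, 6087 had sites in the 3′ UTR. Full-length ADAR2 called 66.0% of the 426, against 38.4% of all 3′ UTR sites, and MCP-ADAR1 48.8%, against 74.0%. PAICS, a purine synthesis enzyme, had 122 sites, 88 of them called with full-length ADAR2 and 57 with MCP-ADAR1. MDM2, the p53 ubiquitin ligase, had 11, all of them called with full-length ADAR2 and 1 with MCP-ADAR1.

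Messages known as let-7 targets held 858 3′ UTR sites, or 49.99 per 1000 adenosines. These lay in 20 of the 21 genes with a listed site, of 25 in the list, against 6087 of 8456 over all genes. HMGA1, a chromatin protein, had 92 sites at 420 per 1000 and CDC34, a ubiquitin-conjugating enzyme, 22 at 262 per 1000, while HMGA2 had 5 at 5.42 per 1000. Messages with AU-rich elements held 453 sites, or 50.1 per 1000, in all 16 genes with a listed site, of 28 in the list. ATF3, a stress transcription factor, led with 78 sites at 250 per 1000, and its site at 100 nt gained 41.4 ± 17.4 points and was called in 22 of 22 libraries. CDKN1A, the p21 cell cycle inhibitor, had 44 sites and DUSP1, a MAP kinase phosphatase, 10. Selenoprotein messages, whose 3′ UTRs carry the element that recodes UGA as selenocysteine, held 231 sites, or 40.9 per 1000. These lay in 14 of the 16 genes with a listed site, of 25 in the list. SELENON had 44 and TXNRD1, thioredoxin reductase, 43. GPX4, the lipid peroxidase, had 7 sites in its 218-nt UTR at 179 per 1000. TFRC, the transferrin receptor, whose 3′ UTR holds iron-responsive elements, had 26 sites, and the one of highest mean gain lay at 600 nt with 5.83% to 72.4% (median 32%). Levels of these messages are not in the files, and their part in the number of listed sites was not tested.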

How the data were processed

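The authors deposited, for each site and library, the fraction of reads with the edited base and an adjusted p-value, with its test and comparison not given in the sources used here. Read counts, and so depth, are unknown, and message levels, by which the cell line could be checked, were not analysed here. Per the submitters' processing notes, bcl2fastq 2.18.0.12, STAR 2.6.0c, SAMtools and build GRCh38.p12 were used. The table holds 1 column of shares with no sample name, so 1 of the 4 runs of the untransfected library was not used.

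A site was called at an authors' adjusted p under 0.01 with a share above the mean of the 3 named untransfected runs. Matched libraries were compared by exact two-sided sign-flip tests with Benjamini-Hochberg adjustment over 4 factors. limma 3.58.1 (R 4.3.3) was fitted to arcsine square roots of all 382978 sites in the 16 MCP libraries, with 4 main effects, an intensity trend and 11 residual degrees of freedom, at an adjusted p under 0.05, and was tested on simulated data. Other steps used scipy 1.17.1, pandas 2.3.3 and numpy 2.4.6 under Python 3.11.15, with matplotlib 3.10.9 for plots. Alternatives changed the call threshold, transcript, transformation, trend, filter or library set.

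Named sites were the 3 of highest mean gain per distance range, the 3 of largest difference per limma factor and direction with one sign in every pair, the 5 genes with most and with densest sites, the gene lists' members and the 5 highest untransfected sites. Sites chosen by gain or by untransfected level were limited to 1 per gene in each range or set. The members, gene lists and rules were chosen with earlier results of these data known, and the motifs, the definition of inverted repeats and the sites described with them after these data were seen. With 1 library per condition, p-values describe this set of constructs, in which libraries with and without guide share a construct. A few items of the gene lists and examples are not reported here.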

Additional observations from a re-analysis of the deposited data

Results flagged for a closer look

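In 5 cases the effect of a factor on called 3′ UTR sites differed between groups of construct pairs before adjustment. Each is an exact permutation test of the difference between effects, 28 such tests were made, and the adjusted p is 0.16 in each of the 5, so none passes. The change in the 3′ UTR part with E-to-Q averaged -2.67 points in 4 NES pairs and -0.375 points in 4 NLS pairs, a gap of -2.29 points (exact p = 0.0286). The same interaction seen from the other factor gives a change with NLS of -2.72 points in 4 E-to-Q pairs and -5.01 points in 4 wild-type pairs, a gap of 2.29 points. With guide the 3′ UTR part changed by 0.133 points in 8 MCP pairs and by -7.37 points in 2 full-length pairs, a gap of 7.51 points (exact p = 0.0222, the smallest possible).

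The change in median distance from the stop codon with E-to-Q averaged 40 nt in 8 MCP pairs and -105 nt in 2 full-length pairs, a gap of 145.0 nt (exact p = 0.0222). With NLS the median distance changed by -24.1 nt in 4 E-to-Q pairs and by -73.6 nt in 4 wild-type pairs, a gap of 49.5 nt (exact p = 0.0286).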

How the results depend on the processing

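As a percentage of UTR length, the differences in median distance were -0.0424 points for E-to-Q (turned round, and passing neither way), -1.64 points for NLS and -0.0983 points for the ADAR2 domain, both no longer past the threshold. With 1 pair left out, the E-to-Q difference in distance lay between 0.778 and 33.6 nt, with 33.6 nt without the full-length E488Q pair without guide (adjusted p = 0.0417), and the guide difference between -17.6 and 4.25 nt, turning positive without the full-length wild-type pair with guide. The 3′ UTR part of calls kept its direction and its side of the threshold in every alternative, at -2.57 to -1.53 points for E-to-Q, -4.19 to -3.65 for NLS and -4.28 to -3.94 for the ADAR2 domain with 1 pair left out. The level difference stayed between 4.43 and 4.86 points. limma counts with 1 library left out were 27227 to 36387 for E-to-Q, 64300 to 69008 for the ADAR2 domain, 560 to 7654 for NLS and 0 to 1 for guide. For NLS they were 0 untransformed and 8386 with the interaction, and for guide 0 untransformed, 0 without trend, 0 with the interaction, 2 on log2 shares and 2 after the filter. The density ratio of the first 50 nt over more than 3000 nt, 12.5 in all, was 7.63 in UTRs of at least 3000 nt and 16.0 for sites called in 2 or more libraries, and that of UTRs up to 500 nt over those above 4000 nt was 6.29 for such sites, against 5.00. The cause of these changes was not tested. Sites listed depend on depth, which is unknown. No paired analysis was possible because of the replicate numbers: each deaminase group is 1 library, so the groups share fewer than 2 numbers. The sign-flip tests pair libraries that match by design, not by replicate number.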
